A study of Mus musculus with 8 samples.

Results

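Ribosome-bound RNA was compared between 3 lateral-type and 3 medial-type libraries of embryonic mouse midbrain dopamine neurons, 6 of the 8 libraries of the series. The libraries were chosen by their titles: datL replicates 1 and 2 with Lateral 1 formed the L side, and datM replicates 1 and 2 with Medial 1 formed the M side. The labels give no full word for L or M in datL and datM, so the sides are called L and M here. The other 2 libraries came from hindbrain serotonin neurons and entered no comparison below except as a named alternative.

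All 6 libraries were made with bacTRAP, in which a ribosomal protein carrying a tag is made only where a chosen gene is active, and tagged ribosomes are pulled down from mixed tissue together with their RNA. The line named for all 6 was the dopamine transporter (Slc6a3) line JD1640, and the labels name no treatment. Per the labels, tissue was dissected on embryonic day 15, and midbrain listed as day 18 was taken on day 15 and then held in vitro for 3 days. The file headers place the datL and datM libraries in a run folder from October and the Lateral and Medial libraries in lane 8 of another run, with a mark E18 on the latter pair only. The form of the title, the run and the E18 mark therefore cannot be told apart, and title form (dat plus a letter, or the full word) was the block in the test. Whether the libraries came from separate animals is not in the labels. The p-values below therefore reflect the spread among these libraries alone, and that spread may be technical.

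Midbrain dopamine neurons arise from the floor plate of the ventral midbrain, where Lmx1a, Foxa2 and sonic hedgehog pattern the progenitors and Nr4a2 then helps switch on the genes of dopamine synthesis and transport. The mature cells lie in the substantia nigra, which is lateral, and in the ventral tegmental area, which is medial, and several genes are used as markers of one or the other. GABA neurons of the ventral midbrain and of the neighbouring diencephalon lie close to them and depend on other factors, among them Gata2, Gata3 and Tal1.

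Total counts ran from 22417739 in Medial 1 to 33216710 in Lateral 1, and 14540 of 38924 genes were abundant enough to test. Of these, 3.72% had no count in Lateral 1 and 13% had none in Medial 1, against 20.2% to 26.5% in the 4 datL and datM libraries. Libraries of the same side and of opposite sides correlated over overlapping ranges. Across the 14540 genes, Pearson's r of log2 CPM (counts scaled to a common library size) ran from 0.646 to 0.737 over the 6 same-side pairs and from 0.619 to 0.763 over the 9 opposite-side pairs. The closest pair was Lateral 1 with Medial 1. These correlations are across genes, which are not independent replicates, and are given without a p.

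**Figure D1:**
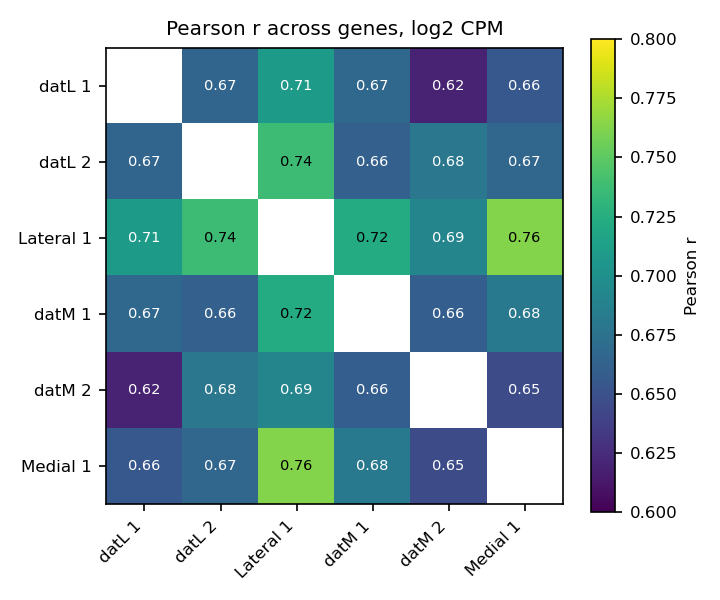
Heat map of Pearson's r across 14540 genes of log2 CPM for each pair of the 6 libraries, both axes listing the libraries and the colour and printed value giving r. Same-side pairs (median 0.673 over 6 pairs) and opposite-side pairs (median 0.667 over 9 pairs) take overlapping values, and Lateral 1 with Medial 1 is highest at 0.763.

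The genes that check the labels were variable. Slc6a3, the dopamine transporter whose regulatory region drives the tag (ENSMUSG00000021609.6, chromosome 13, 73536747 to 73578672, mm10), stood at 141, 241 and 725 CPM in datL 1, datL 2 and Lateral 1 and at 32.5, 177 and 113 CPM in datM 1, datM 2 and Medial 1. The sides overlapped, since datM 2 lay above datL 1. Th, which catalyses the first step of dopamine synthesis (chromosome 7, 142892752 to 142931128, ENSMUSG00000000214.4), stood at 101, 366 and 835 CPM on the L side and at 923, 255 and 598 CPM on the M side. Its log2 fold change, L minus M, was -0.75 (SE 0.70) and was 0.13 without datM replicate 1. Slc6a4, the serotonin transporter, had no count in the datL and datM libraries and stood at 5.17 CPM in Lateral 1 and 3.42 CPM in Medial 1. Slc6a3, Th and Ddc, the decarboxylase, were thus counted in all 6 libraries. Slc18a2, the vesicular monoamine transporter, had no count in datL 1 and stood at 10.8 to 166 CPM in the other 5 libraries, and Pitx3, a transcription factor of dopamine neurons, stood at 0 to 3.49 CPM.

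With title form as a block, edgeR's quasi-likelihood test placed 0 of 14540 genes (0%) past an adjusted p of 0.05. The smallest adjusted p was 0.267, for Anxa1, and 352 genes (2.42%) had an unadjusted p under 0.05, 228 higher on the L side (1.57%) and 124 lower (0.853%). Among the other tools, limma-voom called 0 genes and DESeq2 called 1074 of 12284 (8.74%), 497 higher and 577 lower, of which 306 did not overlap between the sides. The number past the threshold in edgeR was 2 without Lateral 1, namely Anxa1 and Gad1, and 5 without Medial 1, namely these and Tcf7l2, Sparcl1 and Dock1. With no expression filter it was 3, namely Anxa1, Tcf7l2 and Gad1. The common dispersion was 2.02, a biological coefficient of variation of 1.42 between libraries once title form and side were fitted. Lateral and Medial are 1 library each, so this spread also takes in any difference of the side effect between title forms. No gene is therefore said below to have risen or fallen, and values are given as they stand.

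The second measure asked at which genes the 3 libraries of one side all lay above the 3 of the other, on CPM scaled with edgeR's TMM factors. There were 1014 such genes (6.97%), 569 with the L side higher (3.91%) and 445 with the L side lower (3.06%). With 3 libraries a side, some genes separate in this way with no side difference. The number alone therefore shows no difference between the sides. Of the 1014, 207 also had an unadjusted p under 0.05. At 208 of the L-higher and 116 of the L-lower genes at least 1 library had no count. That is 32% of the non-overlapping genes, against 40.9% of all genes tested. Among 6453 genes with at least 10 counts in each of the 6 libraries, 482 did not overlap (7.47%), 233 with the L side higher (3.61%) and 249 lower (3.86%). Of the 10370 genes with a mean of at least 5 CPM, 457 did not overlap with L higher (4.41%) and 412 with L lower (3.97%). With any 1 library left out the number over all tested genes was 2108 to 2403, since 3 libraries are then set against 2. Lateral 1, the deepest library with the fewest genes at 0, belongs to the L side, and the part of depth in the split of directions was not tested. With size factors of the RLE method the split was 523 higher and 510 lower, and with raw totals 499 and 541.

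The 2 title forms share no library, so they can be set side by side. The sign of datL minus datM matched that of Lateral minus Medial at 45.9% of the tested genes, and Pearson's r between the 2 differences across genes was 0.0418. Genes with no count in any datL or datM library have a difference of 0 there and were scored as not matching, which lowers the share. Genes with no count in either Lateral 1 or Medial 1 were scored as negative there, through a rounding remainder just below 0. They therefore matched wherever datL minus datM was negative. Among the 10370 genes with a mean of at least 5 CPM the share was 49.7% and r was 0.0535. Among the 6453 genes with at least 10 counts in all 6 libraries the share was 49% and r was 0.0216. The sides differed in the same direction in both forms, without overlap within either, at 1006 genes with L higher (6.92%) and 859 with L lower (5.91%). Some genes would meet this rule with no side difference, so these counts alone show none. Lateral and Medial are 1 library each, so a test of whether the forms differ takes its spread from the datL and datM pairs alone. Such a test can miss real differences, and 0 calls would not show that the forms agree. In a test of the difference between the 2 forms' side effects, edgeR placed 0 genes (0%) past the threshold, 115 (0.791%) had an unadjusted p under 0.05, and limma-voom also called 0.

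**Figure D2:**
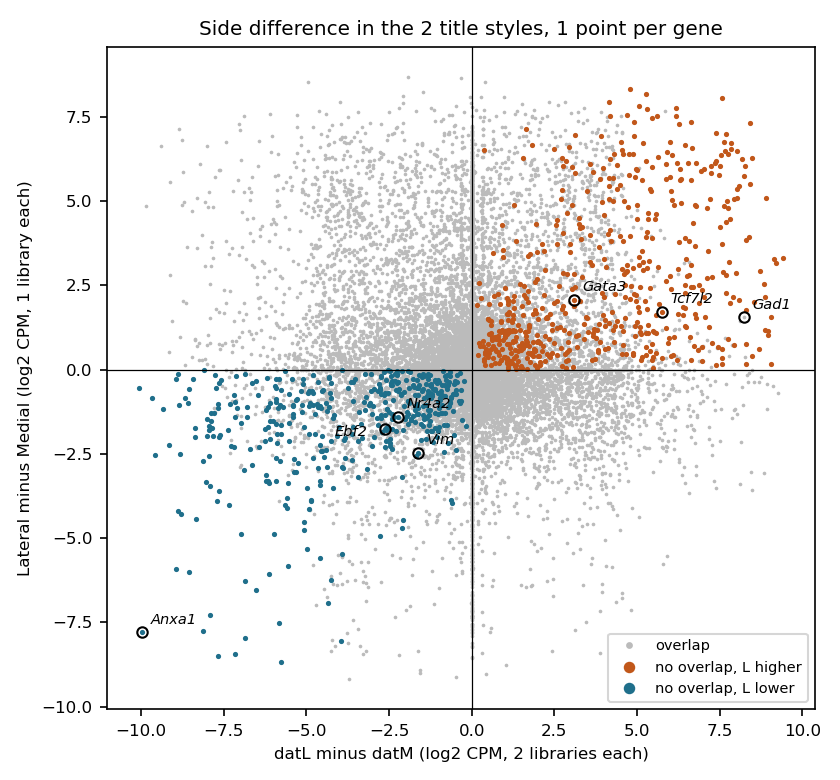
Each point is 1 gene, with the difference of log2 CPM between datL and datM (2 libraries each) on the x axis and between Lateral and Medial (1 library each) on the y axis. Coloured points are the 569 genes with no overlap and L higher and the 445 with no overlap and L lower, which the definition places in the upper right and lower left. Over all genes r is 0.0418.

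Among genes higher on the M side, Anxa1 had the smallest p, and it encodes a calcium-dependent phospholipid-binding protein (ENSMUSG00000024659.8, chromosome 19, 20373428 to 20390944). It had 1, 2 and 11 counts in datL 1, datL 2 and Lateral 1, and 4578, 2769 and 2293 counts in datM 1, datM 2 and Medial 1. In CPM these were 0.048, 0.0804 and 0.325 against 171, 116 and 89.0. Every M library lay far above every L library, and the log2 fold change was -9.94 (SE 1.44, edgeR adjusted p = 0.267). Within the title forms the differences were -9.97 and -7.79. Over the alternatives run, its adjusted p ran from 2.16e-19, in DESeq2, to 1. It passed the threshold in 4 of 14: DESeq2, edgeR with no expression filter, and edgeR without Lateral 1 or without Medial 1. In the adult midbrain Anxa1 is used as a marker of a set of nigral neurons, and it was placed in the lateral list for that reason.

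Some transcription factors of dopamine neurons stood higher in every M library. Nr4a2, a nuclear receptor needed for the dopamine fate (ENSMUSG00000026826.7, chromosome 2, 57106830 to 57124003), stood at 61.7, 104 and 113 CPM on the L side and at 472, 297 and 297 CPM on the M side, in the order datL 1, datL 2, Lateral 1 and datM 1, datM 2, Medial 1 that is kept below. The sides did not overlap (log2 fold change -1.94, SE 0.58, edgeR adjusted p = 0.962). Lmx1a, which specifies the floor plate and its dopamine progenitors (ENSMUSG00000026686.8, chromosome 1, 167689239 to 167848741), stood at 30.9, 47.5 and 108 CPM and at 349, 186 and 126 CPM. The gap was wide between datL and datM and narrow between Lateral and Medial, with log2 differences of -2.73 and -0.23. En2, an engrailed factor of the midbrain and hindbrain, stood at 5.04, 1.17 and 7.68 CPM and at 42.7, 13.1 and 17.6 CPM. Chrna6, a nicotinic receptor subunit concentrated in dopamine neurons (ENSMUSG00000031491.9, chromosome 8, 27403214 to 27413944), stood at 15.4, 0.764 and 56.3 CPM and at 177, 272 and 68.6 CPM.

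These 4 were the members of 20 midbrain dopamine neuron genes without overlap, all lower on the L side, where 3.06% of all tested genes were lower without overlap. The median log2 fold change over the 20 was -0.76, against 0.14 over all genes tested, and -1.34 and -0.10 within the 2 title forms. Their summed level overlapped, at 610 to 3180 CPM on the L side and 2220 to 2880 CPM on the M side, and datL 1 held the lowest sum and Lateral 1 the highest. In bulk libraries such as these, fewer cells of a type and less RNA per cell cannot be told apart.

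EBF factors, a family of helix-loop-helix regulators of neuronal differentiation, had 2 of 4 members without overlap, both lower on the L side (3.06% over all tested genes). Ebf2 (ENSMUSG00000022053.7, chromosome 14, 67233292 to 67430918) stood at 67.9, 71.6 and 28.3 CPM and at 398, 464 and 96.9 CPM (log2 fold change -2.35, SE 0.59, edgeR adjusted p = 0.962). Ebf3 (ENSMUSG00000010476.7, chromosome 7, 137193673 to 137314445) stood at 79.9, 32.8 and 47.3 CPM and at 388, 96.4 and 145 CPM (log2 fold change -1.94, SE 0.75). For both genes each title form gave a negative difference, of -1.77 and -1.62 between Lateral and Medial. Ebf1 and Ebf4 overlapped between the sides, and the family's median of -1.36 became 0.24 without datM replicate 1. Ntn1, a netrin that guides growing axons and is made by the floor plate, stood at 15, 2.01 and 60.5 CPM and at 366, 74.6 and 120 CPM (log2 fold change -3.61, SE 1.26). Of 24 axon guidance genes, Ntn1 and Epha3 did not overlap with L lower and Efna5 with L higher, against 3.06% and 3.91% of all tested genes. Their summed levels ran from 413 to 886 CPM on the L side and from 949 to 1870 CPM on the M side.

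Floor plate and patterning factors summed to 164 to 207 CPM on the L side and 402 to 573 CPM on the M side, led by Lmx1a. Of 13 tested, Lmx1a did not overlap with L lower and Nkx2-2, a ventral patterning factor, with L higher, against 3.06% and 3.91% of all tested genes. Wnt5a, a signalling ligand of the ventral midbrain, stood at 0.384, 0.161 and 26.8 CPM and at 74.5, 58.3 and 16 CPM, and the order of the sides was opposite in the 2 title forms. The median of the 13 was -1.97, at -2.73 between datL and datM and 0 between Lateral and Medial.

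Markers of lateral and medial dopamine neurons were set against the sides. Of 12 lateral nigral markers, Anxa1 alone did not overlap, and it was lower on the L side (3.06% over all tested genes). Lmo3, a transcriptional cofactor, stood at 55.8, 313 and 191 CPM and at 10.7, 104 and 23.0 CPM and overlapped at datM 2. The median of the 12 was 1.1, and it was 0.83 within datL and datM and -0.47 between Lateral and Medial. Of 13 medial tegmental markers tested, Nfia and Cbln4 did not overlap, both lower on the L side (3.06% over all tested genes), and the median was -2.98, ranging from -3.04 to -0.95 over the alternatives. Nfia, a nuclear factor I protein of neural and glial differentiation, stood at 342, 388 and 182 CPM and at 624, 823 and 398 CPM. Cbln4, a secreted synapse organiser, stood at 0, 7.07 and 3.51 CPM and at 28.7, 33.0 and 29.3 CPM. Otx2 and Calb1, often used to mark medial neurons, overlapped between the sides, as did Sox6, a factor of nigral neurons.

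Some genes of progenitors and radial glia stood higher in every M library. Vim, an intermediate filament of radial glia (ENSMUSG00000026728.4, chromosome 2, 13573927 to 13582826), stood at 342, 214 and 183 CPM and at 1432, 484 and 1012 CPM (log2 fold change -2.01, SE 0.55, edgeR adjusted p = 0.962). Nes, the filament protein of neural progenitors (ENSMUSG00000004891.10, chromosome 3, 87971078 to 87980451), stood at 21.9, 27.5 and 30.3 CPM and at 274, 316 and 39.2 CPM, so that Medial 1 lay close to the L libraries. Slc1a3, the glutamate transporter of glia, stood at 6.62, 30.8 and 109 CPM and at 172, 177 and 206 CPM. These were the 3 non-overlapping members of 15 radial glia and astrocyte genes, all with L lower (3.06% over all tested genes). The median was -0.53, and the summed level overlapped, at 2530 to 4290 CPM and 3650 to 5420 CPM, led by Fabp7. Sparcl1, a matricellular protein of glia and vessels that belongs to no list, stood at 5.13, 14.7 and 253 CPM and at 261, 288 and 411 CPM.

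Motile cilium genes, which are typical of ependymal cells, had 4 of 16 members without overlap, all lower on the L side (3.06% over all tested genes). Foxj1, the master factor of motile cilia, stood at 0.048, 0.482 and 0.413 CPM and at 17.0, 4.01 and 19.6 CPM, and Pifo at 0.048, 0 and 2.01 CPM and at 22.9, 29.0 and 20.8 CPM. Dnah11 and Ak7 had no count on the L side, but datM 1, datM 2 and Medial 1 held only 1, 1 and 29 counts of Dnah11 and 4, 147 and 522 of Ak7. The median was -6.18, or -5.39 with genes at 0 on one side set to their bound, and ran from -8.03 to -0.96 over the alternatives. Summed levels were 81.4 to 193 CPM on the L side and 210 to 619 CPM on the M side. Mlf1 led the sum at 18.9% and itself overlapped between the sides. It gave 43.3 of the 193 CPM of datL 1 and 76.8 of the 210 CPM of datM 1. The sums thus separate only with Mlf1 included. Vascular and stromal genes were low, at 15.1 to 65.9 CPM summed on the L side and 96.7 to 162 CPM on the M side. Rgs5 of pericytes was the 1 member of 11 tested without overlap, against 3.06% of all tested genes with L lower. It stood at 9.21, 6.83 and 11.4 CPM against 56.2, 43.3 and 56.3 CPM. The median of the 11 was -1.26, with 3 positive and 8 negative. Rgs5 made up 34.6% of the sum, with 6.83 of 65.9 CPM in datL 2 and 56.2 of 96.7 CPM in datM 1. These sums thus separate only with Rgs5 included. Cldn5, an endothelial junction gene, was at 0 to 2.01 CPM in every library. The part of ependymal, glial and vascular RNA in the M-side differences was not tested.

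Among genes higher on the L side and counted in every library were 2 transcription factors, Tcf7l2 and Gata3. Tcf7l2, a Wnt pathway factor of the thalamus and habenula (ENSMUSG00000024985.12, chromosome 19, 55741810 to 55933654), stood at 1304, 973 and 438 CPM and at 90.5, 4.71 and 132 CPM (log2 fold change 3.70, SE 1.03, edgeR adjusted p = 0.962). Every L library lay above every M library, and both title forms gave a positive difference, of 5.76 and 1.72. Gata3, a selector factor of GABA neurons that serotonin neurons also express (ENSMUSG00000015619.10, chromosome 2, 9857078 to 9890034), stood at 460, 72.5 and 206 CPM and at 37.7, 11.8 and 48.7 CPM (log2 fold change 2.99, SE 0.88).

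GABA neuron genes had 5 of 12 tested members without overlap, all with L higher (3.91% over all tested genes): Gad2, Gata3, Dlx1, Dlx5 and Lhx1. Gad2, which makes GABA at synapses, stood at 214, 203 and 138 CPM and at 47.8, 131 and 117 CPM. Dlx1, a homeobox factor of forebrain GABA neurons, stood at 10.2, 29.9 and 7.97 CPM and had no count on the M side, at least 409-fold higher against a floor of 3 counts over the group. Gad1, the other GABA-synthesising enzyme (ENSMUSG00000070880.4, chromosome 2, 70553072 to 70602014), stood at 113, 378 and 612 CPM and at 1.57, 0.209 and 209 CPM. It overlapped, since Medial 1 lay above datL 1. The log2 differences were 8.23 between datL and datM and 1.55 between Lateral and Medial, the latter from 1 library each. The median of the 12 was 4.52, with 11 positive, and ran from 1.27 among genes with at least 10 counts in every library to 6.72. Summed levels were 799 to 1170 CPM on the L side and 168 to 616 CPM on the M side, and the part of RNA from GABA neurons in the other L-side differences was not tested.

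**Figure D3:**
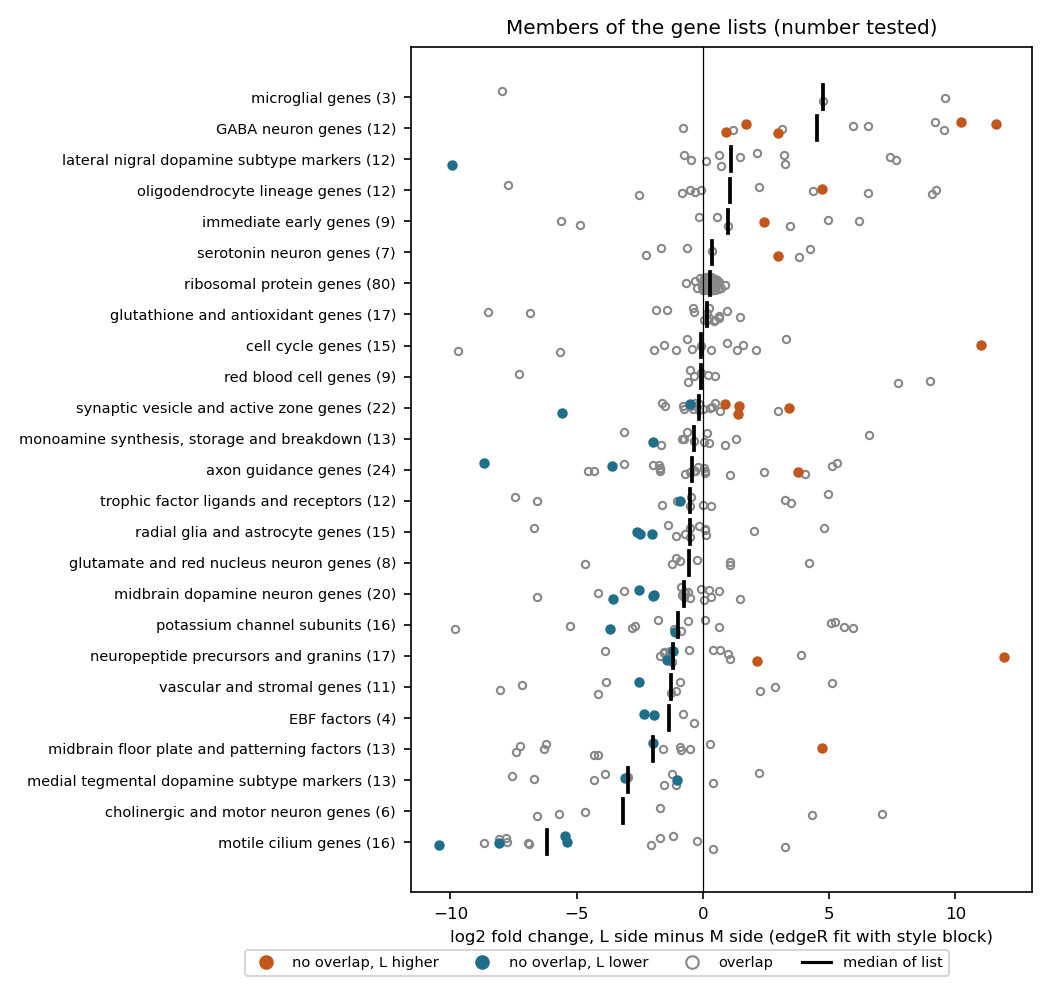
Log2 fold change of each tested member, L side minus M side, 1 row per list with the number tested in brackets. Filled points are members without overlap, open points are members that overlap, and the black bar is the list's median. GABA neuron genes have a median of 4.52 and motile cilium genes of -6.18, against 0.14 over all genes tested.

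Of 22 synaptic vesicle and active zone genes, 4 did not overlap with L higher and 2 with L lower, against 3.91% and 3.06% of all tested genes, and the median was -0.15. Stx1a, a plasma membrane SNARE (ENSMUSG00000007207.4, chromosome 5, 135023482 to 135051100), stood at 276, 372 and 380 CPM and at 89.2, 120 and 204 CPM. Snap25, another SNARE, stood at 497, 723 and 767 CPM and at 462, 342 and 281 CPM, and Cplx1, a complexin, at 96.3, 184 and 115 CPM and 42.2, 41.4 and 65.0 CPM. On the other side lay Sv2b, a vesicle glycoprotein with 0, 0.844 and 19.6 CPM and 51.8, 53.9 and 78.9 CPM, and Pclo, an active zone scaffold.

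Peptide genes showed single members rather than a shared pattern. Sst, the somatostatin precursor, stood at 54.1, 41.6 and 28.7 CPM and at 15.1, 10.5 and 4.70 CPM. Gal, the galanin precursor, stood at 47.9, 10.3 and 5.76 CPM and had no count on the M side, at least 544-fold higher. Tac1 and Scg3 did not overlap in the opposite direction. Of the 17 tested members, 2 thus did not overlap with L higher and 2 with L lower, against 3.91% and 3.06% of all tested genes. The median of the 17 was -1.18. The summed level of 9 immediate early genes was 48.5 to 98.5 CPM on the L side and 14.6 to 38.6 CPM on the M side. Dusp1, a phosphatase induced by stress and activity, led the sum at 51.1%. It stood at 65.7, 45.9 and 14.2 CPM and at 10.9, 7.68 and 3.42 CPM. In datL 2 it gave 45.9 of 50.7 CPM, so the sums separate only with Dusp1 included. Dusp1 was the 1 member of 9 without overlap, against 3.91% of all tested genes with L higher. The median of the 9 was 0.999, at 0 between datL and datM and 1.44 between Lateral and Medial. Fos and Egr1 had no count in the 2 datL libraries and stood at 7.26 and 9.57 CPM in Lateral 1. On the M side both were at 0 to 0.116 CPM.

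**Figure D4:**
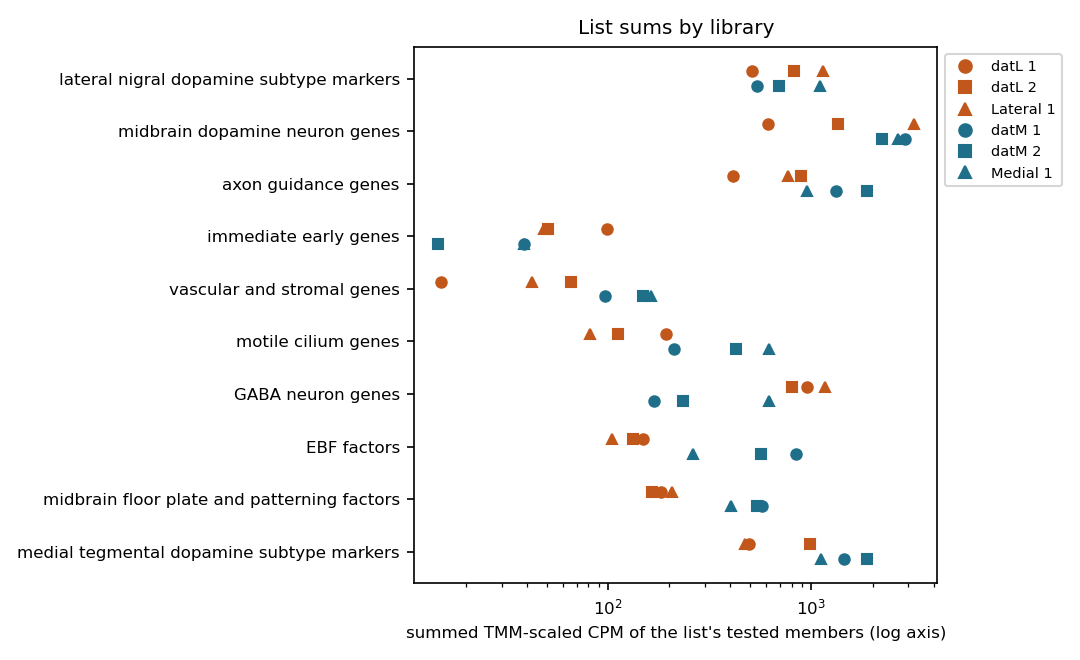
Summed TMM-scaled CPM of the tested members of 10 lists on a log axis, 1 point per library, L-side libraries in orange and M-side libraries in blue. The lateral marker and dopamine neuron sums overlap between the sides. The other 8 do not, 2 with L higher (GABA neuron and immediate early genes) and 6 with L lower. The motile cilium, vascular and stromal, and immediate early sums separate only with Mlf1, Rgs5 and Dusp1 included, respectively.

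Of the 25 lists with a tested member, these 8 had sums without overlap and 17 had sums that overlapped. For motile cilium, vascular and stromal, and immediate early genes the separation rests on Mlf1, Rgs5 and Dusp1, respectively. The sums of the EBF factors were 105 to 149 CPM on the L side and 261 to 837 CPM on the M side, and those of the medial markers 472 to 985 CPM and 1110 to 1870 CPM.

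The following lists held at most 1 member without overlap each, against 6.97% of all tested genes. With L higher these were Gata3 among 7 serotonin neuron genes, Ccne1, a cyclin of the start of DNA replication, among 15 cell cycle genes, and Nkx2-2 among 12 oligodendrocyte lineage genes. With L lower, Ntrk2, the BDNF receptor, did not overlap among 12 trophic factor genes. Glutamate and red nucleus, cholinergic and motor, microglial, red blood cell and antioxidant genes had 0 members without overlap of 8, 6, 3, 9 and 17 tested. Microglial genes summed to 0 to 6.94 CPM on the L side and 0 to 13.7 CPM on the M side. Red blood cell genes, from 100 to 832 CPM and from 206 to 765 CPM, overlapped widely.

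The widest folds with no overlap included genes with no count on one side. M-side counts were 0 in all 3 libraries at 56 of the 569 L-higher genes, and L-side counts were 0 at 13 of the 445 L-lower genes. Zic4, a zinc finger factor of the dorsal neural tube and cerebellum (chromosome 9, 91362413 to 91389348), stood at 22.2, 30.5 and 12.1 CPM and had no count on the M side, at least 550-fold higher. Its span overlaps that of Zic1 on the opposite strand. Counting ignored strand, so reads from the shared stretch cannot be told apart by strand. Wdcp and Pcdhb7, the second a clustered protocadherin, were at least 575-fold and 423-fold higher. Lypd6, a nicotinic receptor modulator, stood at 55.9, 72.1 and 0.679 CPM on the L side, with Lateral 1 far below the datL libraries. It had 1 count in all on the M side, a ratio of 2860 with a 95% interval of 514 to 113000. In the opposite direction Cyba, the light chain of the phagocyte oxidase, stood at 17.5, 14.2 and 27.9 CPM and had no count on the L side, at least 527-fold lower. Prelp, a matrix proteoglycan, had 1 count on the L side, a ratio of 2170 with an interval of 389 to 85600. At some of these genes 1 library of the higher side held only 1 or 2 counts. Slc39a12, a zinc transporter, had 1, 1157 and 159 counts in datL 1, datL 2 and Lateral 1, and Pex11g, a peroxisomal protein, had 816, 2 and 154. Nme9 had 1, 515 and 238 counts in datM 1, datM 2 and Medial 1, while Ccdc170 had 774, 1 and 93. All these intervals and floors cover counting error only.

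Other genes without overlap had at least 10 counts in every library. Prkar1b, a regulatory subunit of protein kinase A in neurons (ENSMUSG00000025855.7, chromosome 5, 139017306 to 139150001), stood at 577, 494 and 719 CPM and at 233, 178 and 284 CPM, with log2 differences of 1.39 and 1.34 in the 2 title forms. Mkln1, muskelin, stood at 84.2, 115 and 77.9 CPM and at 12.2, 2.29 and 4.35 CPM, with differences of 4.19 and 4.14. In the L-lower direction Rabl3, a small GTPase-like protein, stood at 0.528, 0.482 and 2.21 CPM and at 107, 45 and 18.0 CPM, with differences of -6.90 and -2.98. Adgrv1, a large adhesion receptor, stood at 2.54, 7.19 and 5.55 CPM and at 65.1, 156 and 30 CPM, with differences of -4.53 and -2.42. Rif1, a DNA repair and replication timing factor, stood at 2.98, 2.45 and 48.4 CPM and at 110, 271 and 67.7 CPM, so that Lateral 1 lay near Medial 1. Ccdc25, Heatr5b and Syce2 did not overlap with L higher, and Syce2 overlaps Gcdh on the opposite strand. Tcf7l2, Sparcl1, Prkar1b, Mkln1, Rabl3 and Adgrv1 were chosen after their values were seen, as were Rif1, Ccdc25, Heatr5b and Syce2.

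**Figure D5:**
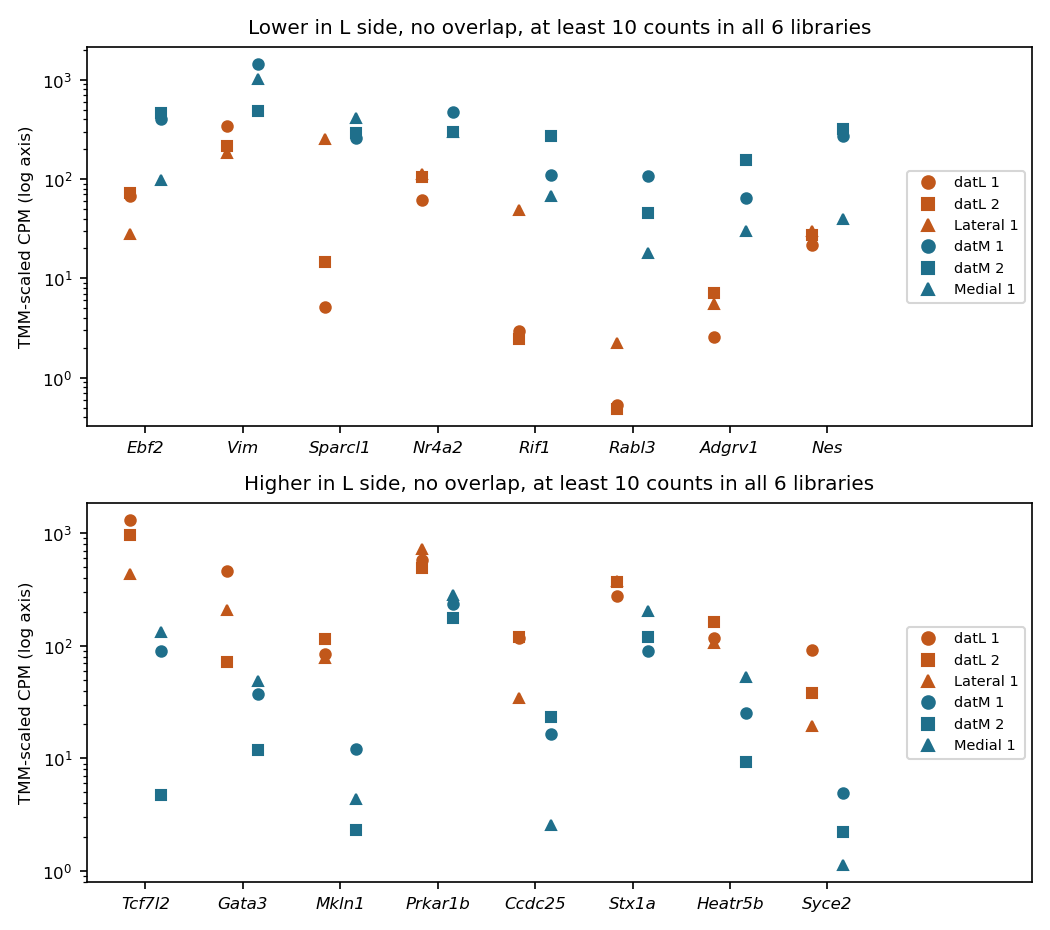
TMM-scaled CPM in each of the 6 libraries, on a log axis, of genes without overlap that had at least 10 counts in every library, the 8 of smallest p in each direction. L-side libraries are orange and M-side libraries blue, and the marker shape gives the library. Every orange point lies below every blue point of its gene in the upper panel (Nr4a2 at 61.7 to 113 against 297 to 472 CPM) and above in the lower panel (Prkar1b at 494 to 719 against 178 to 284 CPM).

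Ribosomal protein genes had 0 of 80 members without overlap. Their median was 0.28, with 75 positive, and the sign differed between the 2 title forms, at 0.56 between datL and datM and -0.60 between Lateral and Medial. The summed level was 83000 CPM in datL 1 and 24700 to 41300 CPM in the other 5 libraries, and the median was -0.37 without datL replicate 1 and -0.0023 without datM replicate 2.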

How the data were processed

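Raw read counts per gene, whole numbers and not normalized, were deposited by the authors as 1 table per library with 38924 genes. Reads were single, 100 bp, from cDNA amplified with 10 PCR cycles at enrichment, per the labels' protocols. Alignment used STAR and the mm10 genome, as the submitters' processing notes list them. Per the file headers, featureCounts 1.4.3-p1 then assigned reads to GENCODE genes and ignored strand. Symbols were attached by gene identifier to 37607 genes.

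The comparison used edgeR 4.0.16 in R 4.3.3: TMM factors, filterByExpr over the 4 groups, a quasi-likelihood fit with title form and side, a two-sided test and Benjamini-Hochberg adjustment over 14540 genes at 0.05. The fit left 3 residual degrees of freedom. SE is not an output of the fit. It is the absolute log2 fold change divided by the square root of the quasi-likelihood F. CPM is a deposited count scaled to the TMM-adjusted library total. Log2 differences within title forms used a prior count of 2. Alternatives were RLE factors, DESeq2 1.42.0, voom of limma 3.58.1, other filters, no block, a replicate block, 8 libraries, datL and datM only, and leaving out each library.

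Named genes were Slc6a3, Th and Slc6a4, the 12 largest folds each way without overlap and with a mean of at least 5 CPM (unnamed models left out), and from each list up to 4 members by smallest p that did not overlap or had an unadjusted p under 0.05. Further list members are named where they complete a count. Of 26 lists, 25 had a tested member, since no mitochondrially encoded gene passed the filter. The members and lists were chosen with earlier results of these data known, and no list was tested. No sequence is shown. Some list members are not reported here.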

Additional observations from a re-analysis of the deposited data

How the results depend on the processing

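In edgeR the number of genes past the threshold was 0 with RLE factors, at least 10 counts in all 6 libraries, no block, 8 libraries, or datL against datM only, and also in limma-voom. It was 3 with no expression filter (Anxa1, Tcf7l2 and Gad1), 1074 in DESeq2, and 0 to 5 when a library was left out. The number of genes without overlap was 482 with at least 10 counts in all 6 libraries, 1599 after centring within title form, and 2108 to 2403 with a library left out, where 3 libraries are set against 2 and overlap is rarer by construction. The share of genes with the same sign in both title forms was 44.8% with a prior count of 0.5 and 49.7% at a mean of at least 5 CPM. The cause of these shifts was not tested beyond what each alternative's construction shows.

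The replicate numbers were not shown to pair libraries: deviations from the group means of the same-numbered datL and datM libraries correlated at 0.0984. With a replicate block, edgeR again placed 0 genes past the threshold, and the block changed no call. Of 970 values of the 68 named genes under the alternatives, 969 kept their direction and 1 reversed, Th at 0.13 without datM replicate 1 (from -1.335 over the libraries left out). Most of the 68 had no overlap between the sides, and many were named for it. Their direction was thus largely fixed beforehand, and its being kept is no measure of robustness. Of the 970, 58 passed the threshold. The difference between title forms gave 0 genes under each alternative run, and was not run without Lateral or Medial, each a group of 1. Of the tested genes, 5942 had no count in at least 1 library, and the part of depth in this was not tested.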
